A study of Mus musculus with 16 samples.

Results

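Sorted colon stroma without the ZsGreen reporter was compared by its surface Sca1: 4 Sca1+Gli1ZsGreen- arrays against 4 Sca1-Gli1ZsGreen- arrays, 8 of the 16 arrays of the series. The members of the comparison were all 28898 of 45141 probe sets that carry 1 gene symbol, reduced to 17097 genes, and both populations came from each of mice 1 to 4. All animals were Gli1CreERT2-ZsGreen mice on a C57BL/6 background, and each had received 1 mg of tamoxifen into the peritoneum on 5 days in a row before its colon was taken on day 6. The labels also give the time point as 5 days after tamoxifen, and the age of the mice is not given in the sources used here. All cells were gated as Epcam-, CD45-, CD31- and gp38+, and the populations compared here differed in the gate on Sca1 alone. The Cre recombinase was driven from Gli1, so a reporter-negative cell is one that tamoxifen did not label, whatever the reason, and every group carried the transgenes and had the drug. RNA of each sort, 2 ng, was amplified and hybridized to 1 array. The other 8 arrays held Sca1+ cells with high or dim reporter from mice with the same numbers. Below, "Sca1+ cells" and "Sca1- cells" are the reporter-negative populations.

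Sca1 is a small surface protein anchored in the membrane by a lipid, and in connective tissue it is used to mark fibroblasts around vessels and in the adventitia that can give rise to other mesenchymal cells. Such fibroblasts are known for secreting matrix, complement, chemokines and the cytokines of acute inflammation. The stroma of the gut wall that lacks Sca1 can hold smooth muscle, pericytes around capillaries, interstitial cells of Cajal, which pace the contraction of the muscle, and the glia of the enteric nervous system. Ly6a, the gene of Sca1 itself, is not analysed here.

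Values are array signals (no unit) recovered from the deposited scores, and a difference is the log2 signal in Sca1+ minus that in Sca1- cells, ± its standard error, with n = 4 arrays a population. "Rose" and "fell" are used for a higher or lower signal in Sca1+ cells at an adjusted p under 0.05. The brightest of 23 nonspecific control probe sets read 234 to 488, depending on the array, and serves here as the array background. Where a gene did not exceed it in any of the 4 arrays of a population, the fold is given as "at least". A gene is read by its brightest probe set. For some genes named below, at least 1 dimmer probe set did not pass and lay closer to 0 by more than 1 on the log2 scale. These were Adamts5, Lox, Has2, Ebf3, Etv1, Gfap, S100b, Heyl, Hhip, Mbp, Lbp, Gfra2 and Npr3. For Ebf2 a dimmer probe set rose by 3.05. In some list members, among them Gbp2, Cx3cr1, Cdon and Kcnmb1, a dimmer probe set passed where the brightest did not. Such members are counted below as not past the threshold. Signals hold the array background, so differences of dim genes are understated. The number of arrays limits the precision. In bulk samples such as these, fewer cells of a type and less RNA per cell cannot be told apart.

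Checks of the 8 arrays preceded the comparison. Xist, which is transcribed from the silenced X chromosome, read 466 and 671 in the Sca1+ and Sca1- arrays of mouse 1 and 18116 to 24417 in the arrays of mice 2 to 4, and the Y-linked Kdm5d read 1750 and 1827 in mouse 1 against 190 to 250. The reporter-negative arrays of each number therefore matched in these sex-linked genes, which would not show an exchange among mice 2 to 4. The reporter-high and reporter-dim arrays with the number of mouse 2 did not match its reporter-negative ones: Xist read 487 and 424 there. Those 2 arrays enter the main comparison only through the shared estimate of the spread and the choice of each gene's brightest probe set. Mouse 1 stood apart: its Sca1- array correlated with the other Sca1- arrays at 0.968 to 0.976, against 0.987 to 0.989 among them, and its Sca1+ array at 0.977 to 0.982, against 0.986 to 0.992. The genes that rose had a median difference of 0.50 in mouse 1 and of 1.04, 1.00 and 1.24 in mice 2, 3 and 4. The genes that fell had a median of -1.21 in mouse 1 and of -0.73, -0.62 and -0.94 in the others. The ratio of 3′ to 5′ signals of Actb was 1.11 ± 0.01 (SD, n = 4) and 1.11 ± 0.05 in Sca1+ and Sca1- cells, and that of Gapdh 0.954 ± 0.008 and 0.917 ± 0.017. The part of the Gapdh shift in the results was not tested.

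None of the 5 measured genes used in the sort passed the threshold in either direction. Gli1, the Hedgehog-induced transcription factor that drives the reporter, read 1545, 889, 1013 and 968 in the Sca1+ arrays of mice 1 to 4 and 1384, 865, 749 and 684 in the Sca1- arrays (0.28 ± 0.21, adjusted p = 0.715). The populations overlapped, and all 8 arrays lay below the means of 2611 and 2323 in reporter-high and reporter-dim cells. Pdpn, which encodes the gp38 protein of the gate, read 5417, 3310, 2828 and 3776 in Sca1+ and 3878, 1674, 1590 and 1643 in Sca1- arrays. It was higher in the Sca1+ array of all 4 mice (0.87 ± 0.26, adjusted p = 0.1), and passed when the arrays were paired by mouse (adjusted p = 0.0138) or without mouse 1 (adjusted p = 0.00174). Fibroblast genes were bright in both populations: the matrix proteoglycan Dcn read 89718 ± 5568 against 70172 ± 12896 (mean ± SD, n = 4) and the collagen Col1a1 51999 ± 4639 against 38245 ± 11799. The gate against epithelium left bright epithelial signal in both. Epcam read 17884 ± 3522 against 17339 ± 5049, and over 23 genes of colon epithelium the log2 signal averaged 13.42 to 14.13 in the Sca1+ and 13.10 to 14.22 in the Sca1- arrays. No epithelial gene passed the threshold, the list median was 0.05, and the difference of Epcam was 0.08 ± 0.39 (adjusted p = 0.98). With the epithelial mean as a covariate all 419 genes of the main count were still called in the same direction. That mean was near equal in the populations (13.83 and 13.80), so the covariate could hardly move the differences. The part of epithelial RNA in the calls was not tested. Pecam1 (CD31) read 4064 ± 890.4 against 4149 ± 2048 and Ptprc (CD45) 635 ± 234 against 899.8 ± 212.

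Sca1+ cells expressed more of an inflammatory and matrix-remodelling set of genes, led by Ptx3 and Il6. Sca1- cells expressed more of a set of ion channels and of some genes of interstitial cells of Cajal, glia and smooth muscle. Kcnd3, Kcna1 and Kit were among the largest falls. In the smooth muscle list 4 of 16 genes fell, and Acta2 and Myh11 did not pass. In all, 419 of 17097 genes (2.45%) passed, 209 of them higher in Sca1+ cells (1.22%) and 210 lower (1.23%). Of these, 101 rose and 90 fell by more than 2-fold, and 10 rose and 18 fell by more than 4-fold. The direction was the same in all 4 mice for 208 of the genes that rose and 209 of those that fell. The arrays of the populations did not overlap for 171 and 195 of them. Over all genes tested, the Sca1+ arrays lay wholly above the Sca1- arrays for 2.70% and wholly below for 2.76%, and the median difference was -0.0007. Sca1- cells were at array background for 9 of the genes that rose, and Sca1+ cells for 36 of those that fell. At the level of probe sets, 699 of 28898 passed (2.42%), 329 up (1.14%) and 370 down (1.28%), and 0 genes had probe sets called in opposite directions. With the arrays scaled to their hybridization controls instead, 65.0% of the calls were higher in Sca1+ cells, against 49.9% here, and the median of all genes was 0.088.

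The count depended on the animals and on the pairing. Paired by mouse on the 8 arrays alone, 584 genes passed (3.42%), 353 up (2.06%) and 231 down (1.35%), of which 173 and 160 were also called in the main analysis. Without mouse 1, 596 passed (3.49%), 405 up (2.37%) and 191 down (1.12%), and 187 and 153 of the main calls remained. Without mouse 2, 3 or 4 the total was 155, 228 and 133, without the Sca1- array of mouse 1 it was 789, and without that of mouse 4 it was 265. The smallest of the 4 differences was that of mouse 1 for 153 of the 209 genes that rose, and the largest fall was that of mouse 1 for 123 of the 210 that fell. Of 111 called genes followed by name across the analysis, 58, 44 and 63 no longer passed without mouse 2, 3 or 4, 6 without mouse 1, and 0 changed direction in any of these. The genes were called in these same arrays, so a change of direction could hardly be seen.

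**Figure D1:**
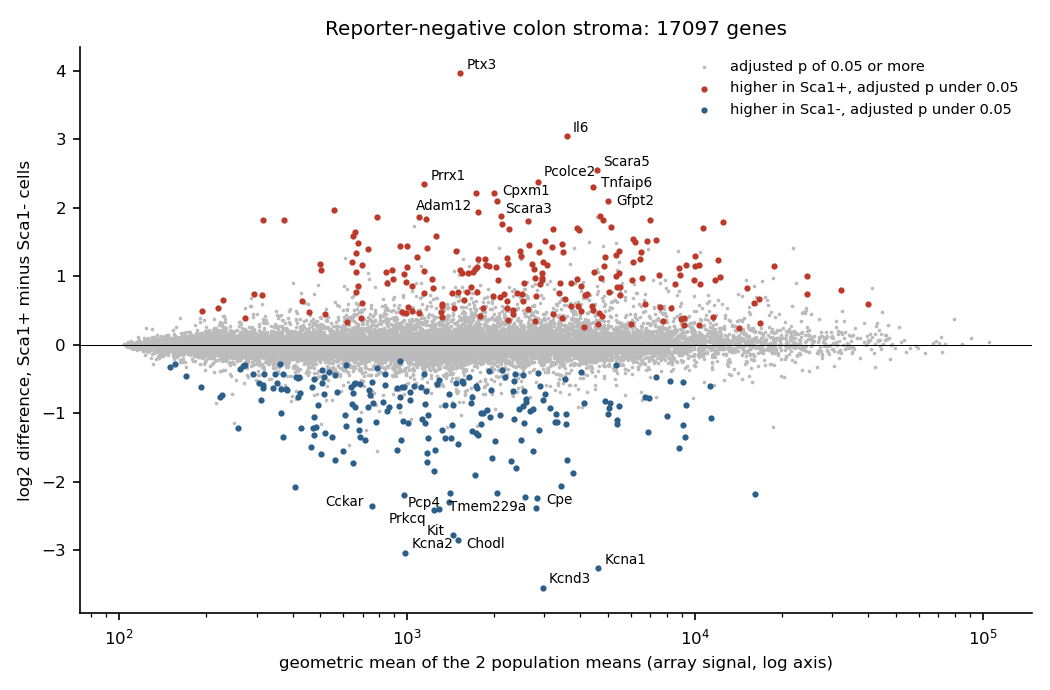
Each point is 1 of 17097 genes, with the geometric mean of its Sca1+ and Sca1- mean signals on a log axis and the log2 difference, Sca1+ minus Sca1- cells, on the other. The 209 genes that rose are red, the 210 that fell are blue, and the 10 largest named changes each way carry their symbols, from Ptx3 at 3.97 to Kcnd3 at -3.55.

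The 10 largest named rises are given by what the genes do and not by size. Secreted proteins of inflammation were 3 of them, among them the largest, Ptx3 and Il6. Ptx3, a pentraxin that binds microbes and complement and is made in acute inflammation, read 4458, 3569, 6868 and 9998 in the Sca1+ arrays of mice 1 to 4 and 526, 357, 340 and 281 in the Sca1- arrays. All 4 Sca1+ arrays were far above all Sca1- arrays, of which 2 were at or below the controls, and the difference was 3.97 ± 0.31 (15.7-fold, adjusted p = 4.93e-06). It was carried by 1 of the 2 probe sets of the gene; the other read a difference of 0.23 and did not pass. Il6, the cytokine that drives the acute-phase response, read 8147, 5743, 8445 and 13092 in Sca1+ arrays and 3389, 747, 1317 and 331 in Sca1- arrays. The populations did not overlap, and the Sca1- arrays spread over a wider range, with mouse 1 highest and mouse 4 lowest. Il6 rose by 3.05 ± 0.53 (8.27-fold, adjusted p = 0.00418). Tnfaip6 encodes a hyaluronan-binding protein that is secreted on inflammatory stimulation. Its signals were 9275, 7025, 7320 and 12632 against 4063, 1550, 2286 and 708, again without overlap and with mouse 1 the highest of the Sca1- arrays, a rise of 2.30 ± 0.37 (adjusted p = 0.00264).

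Another 4 encode scavenger receptors or secreted enzyme-like proteins. Scara5, a scavenger receptor that takes up ferritin, read 10404, 10755, 8963 and 11674 in Sca1+ and 3385, 1308, 2348 and 965 in Sca1- arrays, and rose by 2.55 ± 0.29 (adjusted p = 0.000135). Its second probe set, with a difference of 0.32, did not pass. Scara3, a scavenger receptor linked to oxidative stress, read 4225, 3942, 4043 and 4347 and 1678, 791, 850 and 759, a rise of 2.10 ± 0.19 (adjusted p = 2.13e-05). Relative to their level, the Sca1+ arrays varied less than the Sca1- arrays for both genes, and mouse 1 was highest among the Sca1- arrays. Pcolce2, an enhancer of the enzyme that trims procollagen, read 5164, 7728, 5994 and 6784 against 1826, 1085, 1152 and 975 (2.38 ± 0.17, adjusted p = 2.80e-06). Cpxm1, a secreted carboxypeptidase-like protein, read 3269, 4318, 4295 and 5383 against 1112, 691, 835 and 1080 (2.22 ± 0.20, adjusted p = 1.57e-05). For each of these the lowest Sca1+ array was above the highest Sca1- array.

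The other 3 were a transcription factor, a membrane protease and a metabolic enzyme. Prrx1, a homeobox factor of embryonic and progenitor mesenchyme, read 1186, 4229, 2140 and 3187 in Sca1+ arrays and 633, 396, 538 and 382 in Sca1- arrays. It rose by 2.34 ± 0.30 (adjusted p = 0.000365), least in mouse 1, and all 5 of its probe sets rose. Adam12, a membrane-bound metalloprotease, read 2938, 2579, 5573 and 4024 against 1095, 634, 718 and 738 (2.21 ± 0.23, adjusted p = 5.90e-05, both probe sets rose). Gfpt2, which feeds sugar into the precursors of hyaluronan and glycoproteins, read 8932, 9392, 9366 and 12522 against 3933, 2098, 2467 and 1449 (2.10 ± 0.22, adjusted p = 7.66e-05). None of the 3 genes overlapped between the populations. All 10 of these rises also passed with the arrays paired by mouse and without mouse 1.

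**Figure D2:**
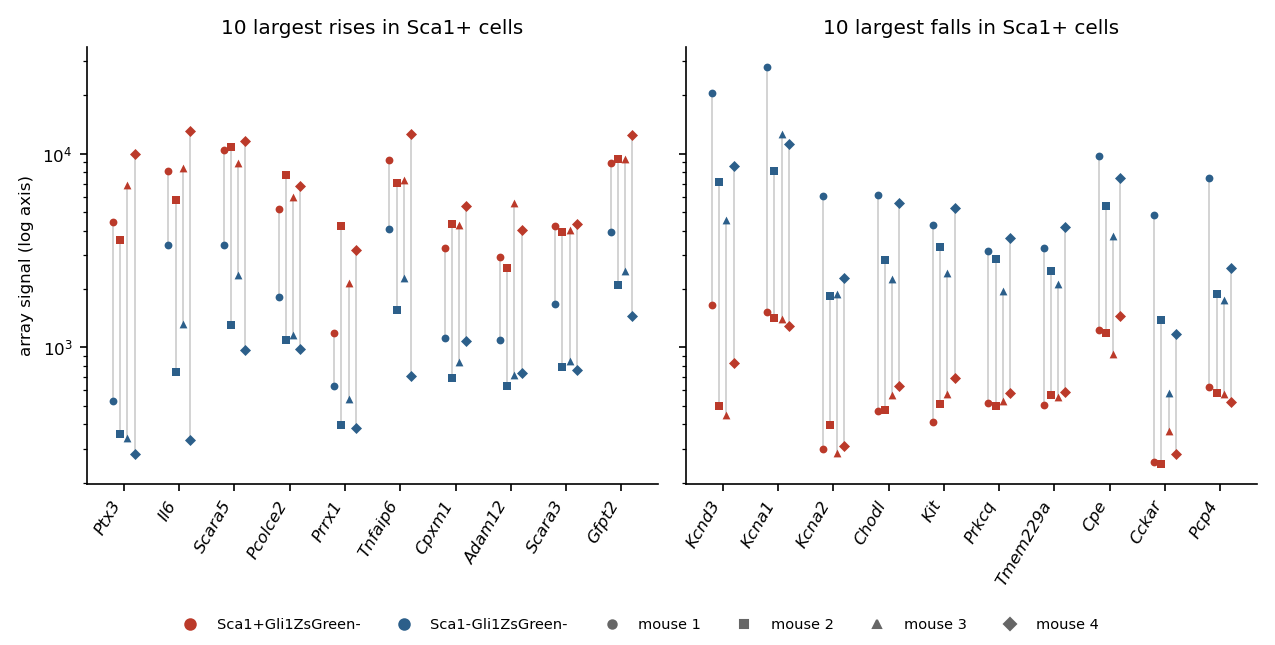
Array signal on a log axis for the 10 largest rises (left) and the 10 largest falls (right) in Sca1+ cells, with red for Sca1+ and blue for Sca1- arrays, a marker shape for each mouse and a grey line joining the arrays of 1 mouse. All 4 lines of every gene run the same way, which was a condition of the choice of these genes. For Kcna1, Kcna2, Kcnd3, Cckar, Pcp4, Cpe and Chodl the highest Sca1- array is that of mouse 1.

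Ion channels of excitable cells had the largest falls. Kcnd3, a voltage-gated potassium channel of the fast transient current, read 1655, 496, 449 and 828 in the Sca1+ arrays of mice 1 to 4 and 20453, 7142, 4524 and 8670 in the Sca1- arrays. It fell by 3.55 ± 0.41 (11.7-fold, adjusted p = 0.000185), and all 4 of its probe sets fell. Kcna1, a delayed-rectifier channel known from axons and glia, read 1528, 1419, 1399 and 1285 and 28057, 8164, 12667 and 11275, a fall of 3.26 ± 0.30 (adjusted p = 2.13e-05) that 3 of its 4 probe sets shared. Its Sca1+ arrays were close to one another, and its Sca1- array of mouse 1 was well above the others. Kcna2, which forms channels with Kcna1, was at array background in Sca1+ cells (299, 398, 284 and 311) and read 6044, 1834, 1894 and 2273 in Sca1- cells. The difference was at least 6.77-fold (adjusted p = 2.47e-05). The populations did not overlap for any of these channels.

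Kit, the receptor tyrosine kinase that interstitial cells of Cajal and mast cells need, read 409, 507, 572 and 691 in Sca1+ arrays and 4305, 3296, 2433 and 5249 in Sca1- arrays, and fell by 2.78 ± 0.23 (6.86-fold, adjusted p = 8.70e-06). Prkcq, a protein kinase C that is also a marker of interstitial cells of Cajal, read 514, 500, 527 and 583 and 3141, 2873, 1948 and 3646 (-2.42 ± 0.14, adjusted p = 2.52e-07). Both were low and even in the Sca1+ arrays, and neither overlapped. Chodl, a membrane protein with a C-type lectin domain, read 469, 475, 566 and 634 against 6129, 2836, 2256 and 5551 (-2.85 ± 0.26, adjusted p = 2.13e-05). Tmem229a, a membrane protein for which no role is given here, read 502, 565, 556 and 587 against 3274, 2471, 2117 and 4185 (-2.40 ± 0.16, adjusted p = 1.10e-06). In these 4 genes mouse 1 was not set apart from the other Sca1- arrays.

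The other 3 of the 10 largest falls were Cpe, Pcp4 and Cckar. Cpe, the carboxypeptidase that trims peptide hormones in secretory granules, read 1229, 1179, 922 and 1454 against 9675, 5386, 3774 and 7478 and fell by 2.39 ± 0.28 (adjusted p = 0.000217). Pcp4, a small regulator of calmodulin found in neurons and smooth muscle, read 620, 580, 571 and 521 against 7516, 1882, 1752 and 2562 (-2.30 ± 0.32, adjusted p = 0.000747). Cckar, a receptor of the gut hormone cholecystokinin, was at array background in Sca1+ cells (255, 250, 368 and 281) and read 4807, 1390, 580 and 1168 in Sca1- cells, at least 3.76-fold more (adjusted p = 0.00948). With the arrays paired by mouse it did not pass (adjusted p = 0.0518). The other 9 of these falls passed paired and all 10 passed without mouse 1.

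Markers of 15 cell types were read as lists, without a test of the list. These lists and the pathway lists below were chosen with earlier results of these data known, so their counts are a description. Adventitial CD34+ Sca1+ fibroblast markers were the list with the highest median: 11 of 21 measured rose, 0 fell and the median was 0.87, against 1.22% of all genes that rose and a median of -0.0007. Paired by mouse 10 rose and 1 fell (Sfrp1), and without mouse 1 13 rose. Cd34, a sialomucin of this cell and of endothelium, read 15151, 11885, 9600 and 12774 against 11794, 4260, 5001 and 3853: the Sca1- array of mouse 1 lay within the Sca1+ range and the other 3 were well below (1.13 ± 0.27, adjusted p = 0.0378). Il33, an alarmin released by damaged stroma, read 3415, 2402, 2766 and 4298 against 1998, 616, 626 and 594 (1.93 ± 0.36, adjusted p = 0.0067). The list's other defining markers, the peptidase inhibitor Pi16 (0.22 ± 0.14, adjusted p = 0.662) and the peptidase Dpp4 (0.41 ± 0.37, adjusted p = 0.799), did not pass. Ebf1, a transcription factor of mesenchyme and B cells, read 2064, 2042, 2208 and 2106 against 1315, 572, 533 and 588 (1.59 ± 0.22, adjusted p = 0.000768, all 3 probe sets rose). Ly6c1 belongs to the same gene family as Sca1 and its probe set may also read near-identical relatives. It read 13123, 11950, 11311 and 11321 against 7226, 4309, 4449 and 2082 (1.53 ± 0.25, adjusted p = 0.00271). Has1, a hyaluronan synthase, rose by 0.67 ± 0.11 (adjusted p = 0.00264). The remaining members that rose, besides Ptx3, were Mfap5, Clec3b, Ackr3, Cd248 and Gsn, named after their values were seen, at 0.59 to 1.49. Paired by mouse Ackr3, a receptor that removes chemokine, did not pass (adjusted p = 0.0584).

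Other fibroblast lists held fewer genes past the threshold. Of 16 lamina propria markers 4 rose and 0 fell (median 0.42; without mouse 1, 7 rose). They were the eosinophil chemokine Ccl11 (1.30 ± 0.22, adjusted p = 0.00342), the lipase Lpl (1.24 ± 0.30, adjusted p = 0.0402), the epithelial growth factor Fgf7 (1.09 ± 0.19, adjusted p = 0.00481) and, named after its values were seen, Cp, the iron oxidase ceruloplasmin (0.63 ± 0.09). Its defining marker Adamdec1, a protease of gut fibroblasts, read 74318, 42551, 40656 and 57317 against 53741, 24536, 28691 and 19726, with the Sca1- array of mouse 1 inside the Sca1+ range (0.83 ± 0.24, adjusted p = 0.0995, and without mouse 1 adjusted p = 0.00283). Of 22 markers of PDGFRA-high subepithelial fibroblasts 2 rose (median 0.14), the Wnt ligands Wnt5a and Wnt4 described below, and 4 rose paired by mouse. Pdgfra itself read 7333, 3909, 3212 and 4202 against 7505, 2864, 3065 and 6244 (-0.02 ± 0.29, adjusted p = 0.994), and the order of the populations differed between the mice. Foxl1 and F3, the other defining markers, did not pass (0.09 ± 0.08 and 0.56 ± 0.38). Of 10 reticular cell markers the lymphoid chemokine Ccl19 rose (0.75 ± 0.16, adjusted p = 0.0184) and the adhesion molecule Icam1 rose (0.97 ± 0.23, adjusted p = 0.0373), and 0 fell.

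Markers of interstitial cells of Cajal fell in 6 of 17 cases and rose in 0 (median -0.32), against 1.23% of all genes that fell. The mean log2 signal of the list was 10.18 to 10.41 in the Sca1+ and 10.74 to 11.13 in the Sca1- arrays, without overlap. Besides Kit and Prkcq, the chloride channel Ano1, the conductance that starts the slow wave, read 7240, 6461, 8457 and 9116 against 18015, 13960, 13884 and 20441 (-1.08 ± 0.21, adjusted p = 0.0107). Etv1, the transcription factor these cells depend on, read 1497, 515, 738 and 995 against 2457, 2387, 1949 and 2798 (-1.46 ± 0.25, adjusted p = 0.00391). Both kept the Sca1+ arrays below all Sca1- arrays. The calcium channel Cacna1h (-1.09 ± 0.27) and Kitl, the ligand of Kit (-0.89 ± 0.17, all 4 probe sets fell), named after their values were seen, completed the list's falls. Mast cells share Kit with this list. Of 22 leukocyte genes Kit was the only one past the threshold by its brightest probe set, and 16 were lower and 6 higher in Sca1+ cells. A dimmer probe set of Cx3cr1 fell (-0.51, adjusted p over probe sets = 0.0322). The list's mean log2 signal was 9.25 to 9.61 in the Sca1+ and 9.53 to 9.83 in the Sca1- arrays.

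Enteric glia and neuron markers fell in 5 of 11 cases (median -0.51), with a mean log2 signal of 9.30 to 9.43 in the Sca1+ and 9.96 to 10.61 in the Sca1- arrays. Sox10, the transcription factor that defines enteric glia, read 1494, 1646, 1523 and 1445 against 3687, 1895, 2052 and 2405 (-0.67 ± 0.16, adjusted p = 0.0344), and did not pass when paired by mouse (adjusted p = 0.0959). All 3 of its probe sets fell, by differences of -0.34 to -2.01, and the value given is that of the brightest. Gfap, the glial filament, read 475, 373, 600 and 661 against 2765, 980, 1218 and 1486 (-1.53 ± 0.26, adjusted p = 0.00324). S100b, a glial calcium-binding protein, was at array background in Sca1+ cells (268, 262, 311 and 235) and read 1264, 653, 532 and 724 in Sca1- cells, at least 1.94-fold more (adjusted p = 0.00036). Foxd3, a neural crest factor named after its values were seen, was at array background in Sca1+ cells and above it in 2 of 4 Sca1- arrays, and did not pass without mouse 1 (adjusted p = 0.073). In all of Sox10, Gfap, S100b and Kcna1 the Sca1- array of mouse 1 was the highest of the 8. Without mouse 1 the differences of Sox10, Gfap and S100b were -0.46, -1.19 and -1.24 and still passed.

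Contractile and mural cell markers changed in part. Of 16 smooth muscle and myofibroblast genes 4 fell and 0 rose (median -0.53), and 7 fell paired by mouse, with a mean log2 signal of 9.92 to 10.76 in the Sca1+ and 10.71 to 11.59 in the Sca1- arrays. Besides Pcp4, the enteric smooth muscle actin Actg2 read 2590, 856, 567 and 1242 against 8141, 3511, 2724 and 3007 (-1.81 ± 0.44, adjusted p = 0.0409). Hhip, a membrane protein that binds Hedgehog ligands and is itself a Hedgehog target, read 3990, 1214, 1243 and 1759 against 10133, 6699, 4486 and 3780 (-1.69 ± 0.36, adjusted p = 0.0188, 1 of 4 probe sets past the threshold). Itga8, an integrin of smooth muscle named after its values were seen, fell by 1.29 ± 0.29 and was at or below the controls in 3 of 4 Sca1+ arrays. Mouse 1 was highest in both populations for Actg2 and Hhip, and every mouse had the lower value in its Sca1+ array. Acta2, the actin shared by smooth muscle and myofibroblasts, did not pass (11542 ± 6640 against 15017 ± 6809, adjusted p = 0.708), nor did the myosin Myh11 (-1.20 ± 0.32, adjusted p = 0.0641), which passed paired (adjusted p = 0.0138).

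Of 13 pericyte markers 1 fell and 3 rose (median -0.07). Rgs5, a regulator of G-protein signalling that marks pericytes, read 9775, 6546, 3980 and 10524 against 43305, 32743, 21047 and 37880, a fall of 2.18 ± 0.29 (adjusted p = 0.000485) in which all 4 probe sets and all 4 mice took part. The lowest Sca1- array, that of mouse 3, was above the highest Sca1+ array. Kcnj8, a potassium channel of pericytes, was lower in the Sca1+ array of all 4 mice (-1.56 ± 0.42, adjusted p = 0.0722) and passed paired (adjusted p = 0.00653). The receptor Pdgfrb did not pass (0.53 ± 0.16, adjusted p = 0.132). Steap4, a metalloreductase (1.07 ± 0.21, adjusted p = 0.00982), and, named after its values were seen, the adhesive protein vitronectin, Vtn (0.85 ± 0.15), rose, as did Ebf1, which the adventitial list also holds.

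Of 14 mesothelium markers 3 rose and 0 fell (median -0.004), with a mean log2 signal of 9.87 to 9.95 in the Sca1+ and 9.67 to 9.77 in the Sca1- arrays. Efemp1, a fibulin of elastic tissue, read 25052, 16481, 14356 and 17632 against 11677, 4246, 5761 and 3233 (1.71 ± 0.28, adjusted p = 0.00297). Wt1, the transcription factor of mesothelium, read 695, 529, 991 and 743 against 417, 277, 330 and 342 (1.09 ± 0.17, adjusted p = 0.00172) and was above the controls in 1 of 4 Sca1- arrays. Rspo1, a Wnt-enhancing ligand, passed at array background in both populations (232, 254, 305 and 271 against 183, 178, 179 and 187), so no fold is given. Msln, a defining surface protein of mesothelium, was at array background in both populations, and Upk3b did not pass (-0.16 ± 0.19). None of the 19 blood endothelium and 9 lymphatic endothelium genes passed (medians 0.06 and -0.26). The lymphatic receptor Lyve1 read 13771, 4029, 2585 and 3693 in the Sca1- arrays, highest in mouse 1, against 1908, 2655, 1911 and 4370 (-0.91 ± 0.41, adjusted p = 0.386). None of 13 crypt genes passed, and of 16 enteroendocrine and tuft genes only the granule chaperone Scg5 fell, at array background in Sca1+ cells (269, 253, 272 and 298 against 370, 320, 386 and 398). The part of these other cell types in the differences between Sca1+ and Sca1- cells was not tested.

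**Figure D3:**
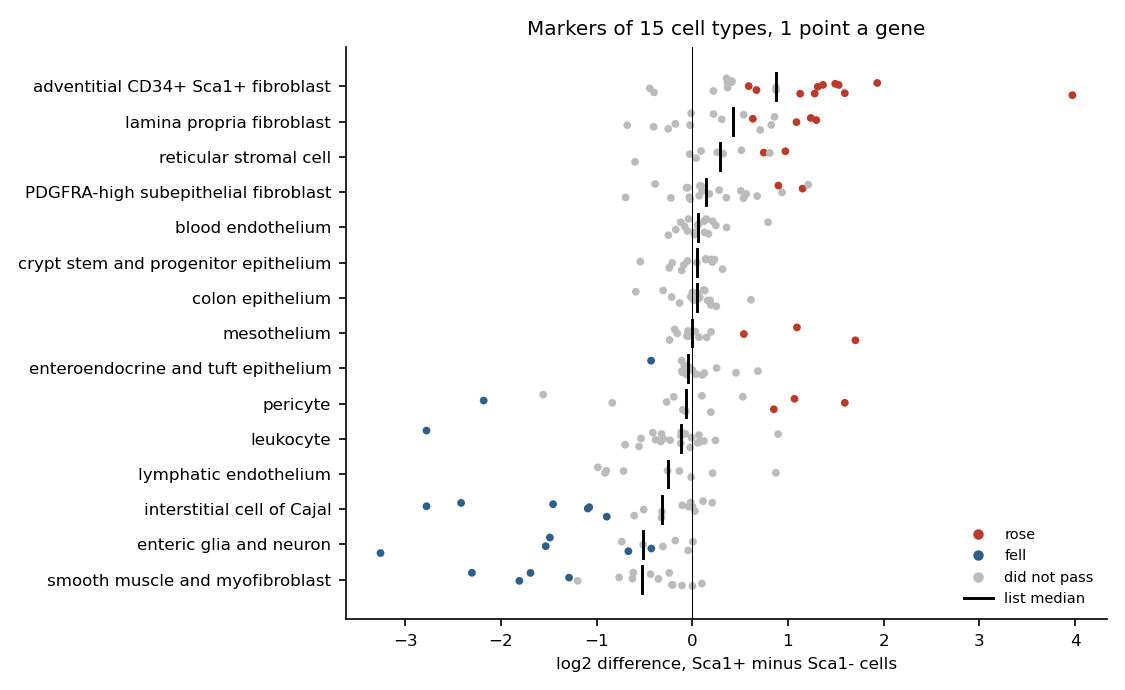
Log2 difference, Sca1+ minus Sca1- cells, of every measured gene in 15 cell type lists, 1 point a gene, with red for genes that rose, blue for genes that fell, grey for genes that did not pass and a black bar at the list median. Medians run from 0.87 for adventitial fibroblast markers to -0.53 for smooth muscle markers, and the largest falls are those of Kcna1 in the glia list, of Kit, which the interstitial cell and leukocyte lists share, and of Prkcq in the interstitial cell list.

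Some chemokines and cytokines rose, and none on these lists fell. This count and those of the pathway lists below stand beside the 1.22% of all genes that rose and the 1.23% that fell. Of 31 chemokines 8 rose (median 0.08), and of 23 cytokine and acute-phase genes 6 rose (median 0.07). Besides Ptx3, Il6, Il33, Ccl11 and Ccl19, the neutrophil chemokine Cxcl1 read 23677, 17602, 18549 and 28827 against 13160, 5345, 5664 and 3906, without overlap (1.79 ± 0.31, adjusted p = 0.00397). Cxcl10, which draws T cells and answers to interferon, read 3832, 3183, 4632 and 5426 against 2691, 1268, 1746 and 909 (1.46 ± 0.34, adjusted p = 0.0344). Cxcl14, a chemokine of resting stroma and epithelium, read 2894, 1707, 1423 and 1596 against 1163, 649, 615 and 481 (1.41 ± 0.26, adjusted p = 0.00666). The macrophage growth factor Csf1, named like the next 5 genes after its values were seen, read 13049, 10433, 8390 and 10247 against 8377, 4671, 4591 and 3844 (1.02 ± 0.19, all 4 probe sets rose). The monocyte chemokines Ccl2 (0.76 ± 0.11) and Ccl7 (1.18 ± 0.15), the acute-phase protein Saa3 (1.27 ± 0.30), the Il6 relative Lif (0.33 ± 0.08) and Cxcl9 rose too. Cxcl9 was at array background in Sca1- cells and above it in 1 Sca1+ array, and neither Lif (adjusted p = 0.0527) nor Cxcl9 (adjusted p = 0.121) passed paired by mouse. The interferon-stimulated genes, 22 in number, held 0 past the threshold by their brightest probe sets, as did 12 genes of antigen presentation. A dimmer probe set of Gbp2 rose (0.98, adjusted p over probe sets = 0.0289), where its brightest did not pass (0.78, adjusted p over probe sets = 0.0573).

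The start-proximal promoters of 3 of these genes are shown because NF-kB, a transcription factor that many inflammatory genes answer to, is known to bind close to their starts. Of the 14 chemokine and cytokine genes that rose, 11 have a promoter in the RefSeq table of build GRCm38.p6. In the 250 bases before the start the NF-kB letters GGNNTTTCC stood, on either strand, in 6 of the 11: Il6, Cxcl1, Csf1, Cxcl9, Cxcl10 and Saa3. A longer form with 1 more G in front had been searched first, and 3 of the 6 hold it: Il6 (chr5:30012864-30013113, plus strand), Cxcl1 (chr5:90890995-90891244, plus strand) and Csf1 (chr3:107760470-107760719, minus strand). The letters of Il6 begin 43 bases before the start, those of Cxcl1 89 and 70, and those of Csf1 154. The sequences run 5′ to 3′ on the strand of the gene, with the 9 matched letters in capitals.
Il6: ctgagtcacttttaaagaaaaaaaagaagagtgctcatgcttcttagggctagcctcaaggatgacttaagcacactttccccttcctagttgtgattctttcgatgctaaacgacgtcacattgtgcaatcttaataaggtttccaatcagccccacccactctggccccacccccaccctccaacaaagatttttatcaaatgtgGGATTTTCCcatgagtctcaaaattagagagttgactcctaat
Cxcl1: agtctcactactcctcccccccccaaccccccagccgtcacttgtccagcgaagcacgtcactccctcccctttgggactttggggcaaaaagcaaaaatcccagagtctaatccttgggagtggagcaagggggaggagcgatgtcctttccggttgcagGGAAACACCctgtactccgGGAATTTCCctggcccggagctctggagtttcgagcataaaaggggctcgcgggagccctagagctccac
Csf1: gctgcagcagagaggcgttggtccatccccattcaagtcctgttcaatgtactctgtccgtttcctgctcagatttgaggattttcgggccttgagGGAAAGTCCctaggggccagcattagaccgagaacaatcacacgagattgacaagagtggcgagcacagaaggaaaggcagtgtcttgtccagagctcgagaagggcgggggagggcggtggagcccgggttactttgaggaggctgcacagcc
The 9 letters stood in 19 of 156 promoters of genes that rose (12.2%), in 4 of 160 of genes that fell (2.5%), in 809 of 13605 of all genes tested (5.95%) and in 4.93% of the 32851 promoters of the table. The longer form gave 5 of 156 (3.21%), 0 of 160, 230 of 13605 (1.69%) and 1.41%, so the shares depend on the form of the motif. The AP-1 letters TGANTCA stood in 16 of 156 promoters of genes that rose (10.3%), 11 of 160 of genes that fell (6.88%) and 6.84% of all genes tested. The letters CCCNNGGG of the EBF factors stood in 32 of 156 (20.5%), 35 of 160 (21.9%) and 17.1%. All were searched on both strands, their overlaps with one another were not removed, and they were chosen after the genes were known. A match is a description of the sequence and not a bound site.

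Other genes of the innate response fell into small groups. Of 13 complement genes 3 rose and 1 fell: the protease C1ra read 9478, 8309, 8986 and 9274 against 6475, 3207, 3449 and 3241 (1.21 ± 0.17, adjusted p = 0.000863), C2 rose by 1.21 ± 0.12 (adjusted p = 4.24e-05) and C4b, named after its values were seen, rose by 1.17 ± 0.24. Cd59a, the membrane inhibitor of the attack complex, read 1457, 1268, 1010 and 1115 against 5442, 2597, 2371 and 3105 and fell by 1.41 ± 0.19 (adjusted p = 0.000747). Ptges, the last enzyme of prostaglandin E2 synthesis, read 5954, 4335, 4766 and 4965 against 2643, 1484, 1629 and 1452 (1.51 ± 0.18, adjusted p = 0.000185) and was the only 1 of 15 prostaglandin genes past the threshold. Ptgs2, the inducible cyclooxygenase before it, named after its values were seen, had a larger difference and a wider spread (11789, 5192, 3735 and 11401 against 6155, 1954, 1377 and 897) and did not pass (1.86 ± 0.52, adjusted p = 0.0803). Of 16 retinoid genes 1 rose, Aldh1a2, which makes retinoic acid (10674, 5534, 10653 and 9323 against 4863, 2493, 2272 and 1841, 1.71 ± 0.26, adjusted p = 0.00131). Of 25 immediate early genes, which cell isolation itself can induce, 3 rose and 0 fell (median 0.19): the growth-promoting factor Myc (4837, 5294, 5532 and 7453 against 2260, 1778, 2308 and 1957, 1.47 ± 0.17, adjusted p = 0.000139), Junb (0.56 ± 0.14, adjusted p = 0.0462) and Socs3, a brake on Il6 signalling (0.90 ± 0.21, adjusted p = 0.0369; paired by mouse adjusted p = 0.0593). The part of dissociation in the rises of inflammatory genes was not tested.

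Matrix genes that rose encode proteases, elastic fibre proteins and hyaluronan enzymes for the most part. Of 24 matrix proteases and inhibitors 8 rose and 0 fell (median 0.46; without mouse 1, 13 rose). After Adam12, the aggrecan-cutting protease Adamts5 read 3386, 3859, 3258 and 4991 against 2039, 1071, 967 and 555 (1.88 ± 0.30, adjusted p = 0.00229). Mmp3, the protease stromelysin, read 2554, 1925, 2811 and 1776 against 1828, 753, 645 and 633 (1.36 ± 0.32, adjusted p = 0.0354), and the Sca1- array of mouse 1 stood inside the Sca1+ range. The other 5, named after their values were seen, were Adamts4, the inhibitor Timp1, Mmp23, Adamts1 and Mmp2, at 0.83 to 1.30, and Adamts1 did not pass paired (adjusted p = 0.0579). Of 19 elastic fibre and crosslinking genes 5 rose and 0 fell (median 0.57; without mouse 1, 9 rose). Emilin2, a glycoprotein of elastic tissue, read 5138, 5318, 6533 and 5167 against 2913, 1675, 2038 and 870 (1.68 ± 0.26, adjusted p = 0.00156), and the crosslinking enzyme Lox read 8288, 6411, 5299 and 6459 against 4867, 1657, 1604 and 1352 (1.68 ± 0.32, adjusted p = 0.00898). Its relative Loxl1, named after its values were seen, and the microfibril protein Mfap5 rose by 0.99 ± 0.22 and 1.49 ± 0.35; paired by mouse Mfap5 did not pass (adjusted p = 0.0625). Of 22 hyaluronan and proteoglycan genes 3 rose and 0 fell (median 0.28; 5 rose paired, 7 without mouse 1): Tnfaip6, Has1 and the hyaluronan synthase Has2 (4948, 2635, 2259 and 5627 against 2521, 799, 1404 and 535, 1.69 ± 0.38, adjusted p = 0.0282; paired adjusted p = 0.0792).

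Of 20 collagens 1 rose and 1 fell (median 0.13). Col14a1, a collagen that lies on fibrils, read 9698, 9030, 9007 and 10374 against 7526, 3819, 3517 and 2561 (1.25 ± 0.23, adjusted p = 0.00746), and Col11a1, a minor fibrillar collagen, read 572, 583, 669 and 612 against 1606, 889, 959 and 1015 (-0.84 ± 0.14, adjusted p = 0.00271). The main fibril collagen Col1a1 did not pass (0.48 ± 0.15, adjusted p = 0.132). Paired by mouse 4 collagens rose, and without mouse 1, 5 rose. Of 21 basement membrane genes 0 passed, with Col15a1 the farthest from 0 (0.71 ± 0.23, adjusted p = 0.153; paired adjusted p = 0.0182), and 4 rose paired and 7 without mouse 1. The matricellular list of 17 genes held 1 rise, the secreted adhesion protein Spon1 (12589, 15597, 12529 and 14114 against 9479, 5362, 6014 and 4518, 1.16 ± 0.17, adjusted p = 0.00126), and 1 fall, the thrombospondin Thbs2 (2949, 5432, 2607 and 3299 against 9370, 6496, 4814 and 11516, -1.15 ± 0.26, adjusted p = 0.0282). Without mouse 1 the list held 5 rises and 0 falls. Thbs2 did not pass paired (adjusted p = 0.0571) or without mouse 1 (adjusted p = 0.157).

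**Figure D4:**
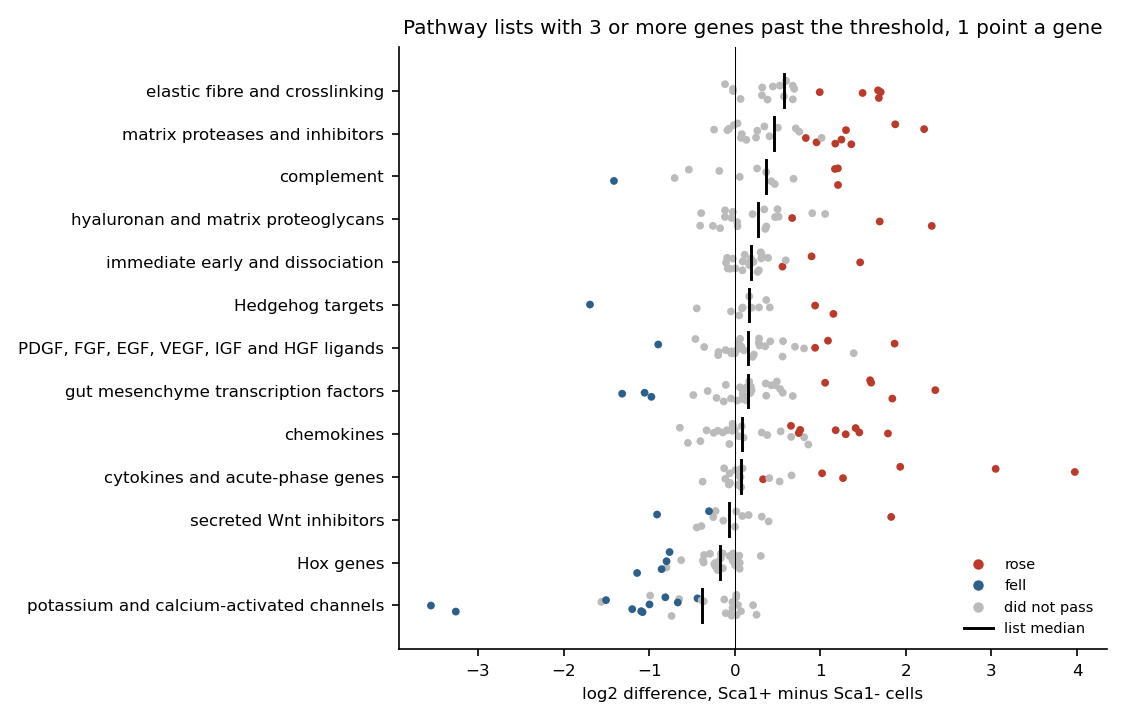
Log2 difference, Sca1+ minus Sca1- cells, of every measured gene in the pathway lists with 3 or more genes past the threshold, 1 point a gene, with red for genes that rose, blue for genes that fell, grey for genes that did not pass and a black bar at the list median. Elastic fibre genes (median 0.57) and matrix proteases (0.46) stand at one end and potassium and calcium-activated channels (-0.39) at the other, and most genes of the chemokine list lie near 0.

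Stromal signals to the epithelium changed in few members. Of 19 Wnt ligands 2 rose and 0 fell (median 0.07). Wnt5a, which acts outside the beta-catenin route, read 4533, 2162, 2056 and 2567 against 2230, 1050, 810 and 1115 (1.15 ± 0.28, adjusted p = 0.0402), and Wnt4 read 4569, 2843, 3127 and 3378 against 2488, 1827, 1827 and 1362 (0.90 ± 0.17, adjusted p = 0.00695). Each mouse had the higher value in its Sca1+ array, and for Wnt5a the Sca1- array of mouse 1 overlapped the Sca1+ arrays of the others. Among 9 R-spondins and receptors only Rspo1 passed. Of 14 secreted Wnt inhibitors 1 rose and 2 fell (median -0.06): Sfrp2, a Frizzled-related decoy, read 8937, 6976, 10439 and 6763 against 5347, 2350, 2377 and 927 (1.83 ± 0.36, adjusted p = 0.0107). Sostdc1, an antagonist of Wnt and BMP, fell (434, 414, 483 and 580 against 1228, 943, 623 and 863, -0.91 ± 0.16, adjusted p = 0.00603), and Sfrp5 fell by a small amount (-0.30 ± 0.07, adjusted p = 0.042; paired adjusted p = 0.122). None of 11 BMP and GDF ligands passed, with Bmp5 the farthest from 0 (0.94 ± 0.32, adjusted p = 0.185). Of 16 BMP antagonists and modulators 2 rose and 0 fell, and 4 rose paired, while without mouse 1, 5 rose and Nog fell. The antagonists Chrdl1 (-1.46 ± 0.39, adjusted p = 0.07) and Nog (-1.16 ± 0.34, adjusted p = 0.1), named after their values were seen, did not pass with all mice. Another of the 4 probe sets of Chrdl1 did (-1.46, adjusted p over probe sets = 0.0135). Bmper, an extracellular modulator of BMP, read 1035, 559, 1844 and 1157 against 724, 297, 207 and 284 (1.65 ± 0.36, adjusted p = 0.0244; paired adjusted p = 0.0799), and the secreted protease Htra3 rose by 0.84 ± 0.17 (adjusted p = 0.0132). None of 10 BMP response genes and 14 TGF-beta genes passed, where 2 of each rose paired by mouse.

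Hedgehog genes, on which the sort by reporter rests, moved in both directions. Of 13 targets 2 rose, Wnt5a and the growth factor Igf1, and 1 fell, Hhip, with a median of 0.17. Igf1 read 7901, 9673, 7064 and 8180 against 6670, 3763, 3475 and 3745 (0.94 ± 0.18, adjusted p = 0.00919, all 4 probe sets rose). Of 20 genes of Hedgehog signal transduction only Scube2, which helps release the ligand, passed (391, 372, 365 and 392 against 1113, 566, 493 and 1778, -1.18 ± 0.28, adjusted p = 0.0388), and it did not pass paired (adjusted p = 0.0745) or without mouse 1 (adjusted p = 0.171), where 2 others of the list rose. Of 30 growth factor ligands 3 rose and 1 fell (median 0.16). The lymphatic growth factor Vegfd read 985, 1715, 1833 and 1487 against 415, 525, 388 and 307, without overlap (1.87 ± 0.22, adjusted p = 0.000212). Fgf7 read 1536, 1185, 1249 and 1137 against 882, 593, 482 and 500, and the fall was that of Kitl, with 5 rises paired by mouse. Of 5 IGF binding proteins Igfbp6 rose (6366, 5168, 4805 and 5137 against 3875, 1613, 1907 and 1591, 1.36 ± 0.23, adjusted p = 0.00387) and Igfbp4 rose (39659, 42500, 44371 and 39464 against 37303, 20616, 20900 and 20200, 0.80 ± 0.15, adjusted p = 0.00925; paired adjusted p = 0.0565). In the Sca1- arrays Igfbp4 was even in mice 2 to 4 and higher in mouse 1.

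Transcription factors of mesenchyme moved in both directions. Of 34 factors 5 rose and 3 fell (median 0.15), and 9 rose paired by mouse. Besides Prrx1 and Ebf1, Ebf3 read 1328, 3016, 1657 and 3002 against 815, 631, 448 and 524 (1.84 ± 0.23, adjusted p = 0.000337). Ebf2 and Prrx2, named after their values were seen, rose by 1.58 ± 0.19 and 1.06 ± 0.17. These 3 Ebf and 2 Prrx factors had the higher value in the Sca1+ array of every mouse. Heyl, a Notch target of mural cells, read 1531, 800, 786 and 1318 against 3686, 2072, 1717 and 3708 and fell by 1.31 ± 0.30 (adjusted p = 0.0314), the only 1 of 17 Notch genes past the threshold. Nkx3-2 and Foxp2, developmental factors named after their values were seen, fell by 1.05 ± 0.14 and 0.97 ± 0.21. Of 32 Hox genes, which record position along the body axis, 4 fell and 0 rose (median -0.17). Hoxb3 read 760, 846, 736 and 704 against 2317, 1405, 1174 and 2058 (-1.14 ± 0.17, adjusted p = 0.00131), Hoxd10 read 3953, 3927, 3215 and 3738 against 9247, 6140, 4712 and 7448 (-0.85 ± 0.15, adjusted p = 0.00489), and Hoxd9 and, named after its values were seen, Hoxb5 fell by 0.80 ± 0.18 and 0.76 ± 0.16.

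Of 29 potassium and calcium-activated channel genes on the list 10 fell and 0 rose (median -0.39), against 1.23% of all genes that fell. Over all 77 measured genes whose symbol starts with Kcn, 10 fell and 0 rose, but the median was -0.02. After Kcnd3 and Kcna1, Kcnn3, a calcium-activated channel through which nerves relax gut muscle by PDGFRA+ cells, read 5900, 4602, 4707 and 5426 against 18150, 13447, 9721 and 18910 (-1.50 ± 0.18, adjusted p = 0.0002). Ano1 and Cacna1h, described above, stand on this list too. The other 5, named after their values were seen, were the glial channel Kcnj10 (-1.20 ± 0.17), the background channel Kcnk3 (1297, 1364, 1293 and 1148 against 3145, 2105, 2512 and 2497), the T-type calcium channel Cacna1g (-0.81 ± 0.18), and Kcnh2 and Kcnn2, which were at array background in Sca1+ cells and at least 1.23-fold and 1.04-fold higher in Sca1- cells. Without mouse 1 Cacna1g (adjusted p = 0.0694), Kcnh2 (adjusted p = 0.0517) and Kcnn2 (adjusted p = 0.0767) did not pass. Of 25 guidance genes Sema3a, a repellent of axons and vessels, fell (2327, 1406, 946 and 1405 against 9858, 3930, 2485 and 3397, -1.56 ± 0.33, adjusted p = 0.0201). Of 17 lipid genes the cholesterol exporter Abcg1 fell (541, 548, 544 and 607 against 1218, 715, 1024 and 1167, -0.85 ± 0.13, adjusted p = 0.00182) and Lpl rose. Of 21 genes of the Ly6 and uPAR family Ly6c1 rose and Cd59a fell. None of 30 proliferation and 19 respiratory chain genes passed (medians 0.03 and -0.01).

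The levels in the reporter-positive Sca1+ populations place these genes, as a description without a test. Other signals differed between these populations too. The mean log2 signal of the epithelium list was 10.89 to 12.69 in reporter-high and 12.61 to 13.67 in reporter-dim arrays, against 13.42 to 14.13 in Sca1+ reporter-negative ones. The Actb 3′ to 5′ ratio was 1.216 to 1.285, 1.085 to 1.241 and 1.096 to 1.129 in that order. The part of either in the levels below was not tested. Of the genes that rose, Ptx3 averaged 6223 in Sca1+ reporter-negative cells, 1220 in reporter-high, 901 in reporter-dim and 376 in Sca1- cells. Adam12 (3778, 1437, 1081 and 796) and Prrx1 (2686, 1068, 949 and 487) had the same order. Il6 averaged 8857, 5439, 4574 and 1446 in that order, and its arrays overlapped between the Sca1+ populations. Cd34 was highest in the reporter-positive cells, at 26666 and 23375 against 12352 and 6227. For Il33 the 3 Sca1+ populations averaged 3609, 3228 and 3220. Of the genes that fell, Kit averaged 545 in Sca1+ reporter-negative cells. Its means of 232 and 266 in reporter-high and reporter-dim cells lay below the array background there (234 to 327 and 292 to 396). Kcna1 averaged 894, 1057 and 1408 in reporter-high, reporter-dim and Sca1+ reporter-negative cells. Rgs5 averaged 8045, 6608 and 7706 in the 3 Sca1+ populations against 33744. Actg2 and Hhip did not follow Sca1: both were highest in reporter-high cells, at 8431 and 15629, against 4346 and 6274 in Sca1- cells and 1314 and 2052 in Sca1+ reporter-negative cells. Nor did the smooth muscle and myofibroblast list, whose log2 signal averaged 11.37 in reporter-high and 10.48 in reporter-dim cells. It averaged 10.99 in Sca1- and 10.26 in Sca1+ reporter-negative cells.

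**Figure D5:**
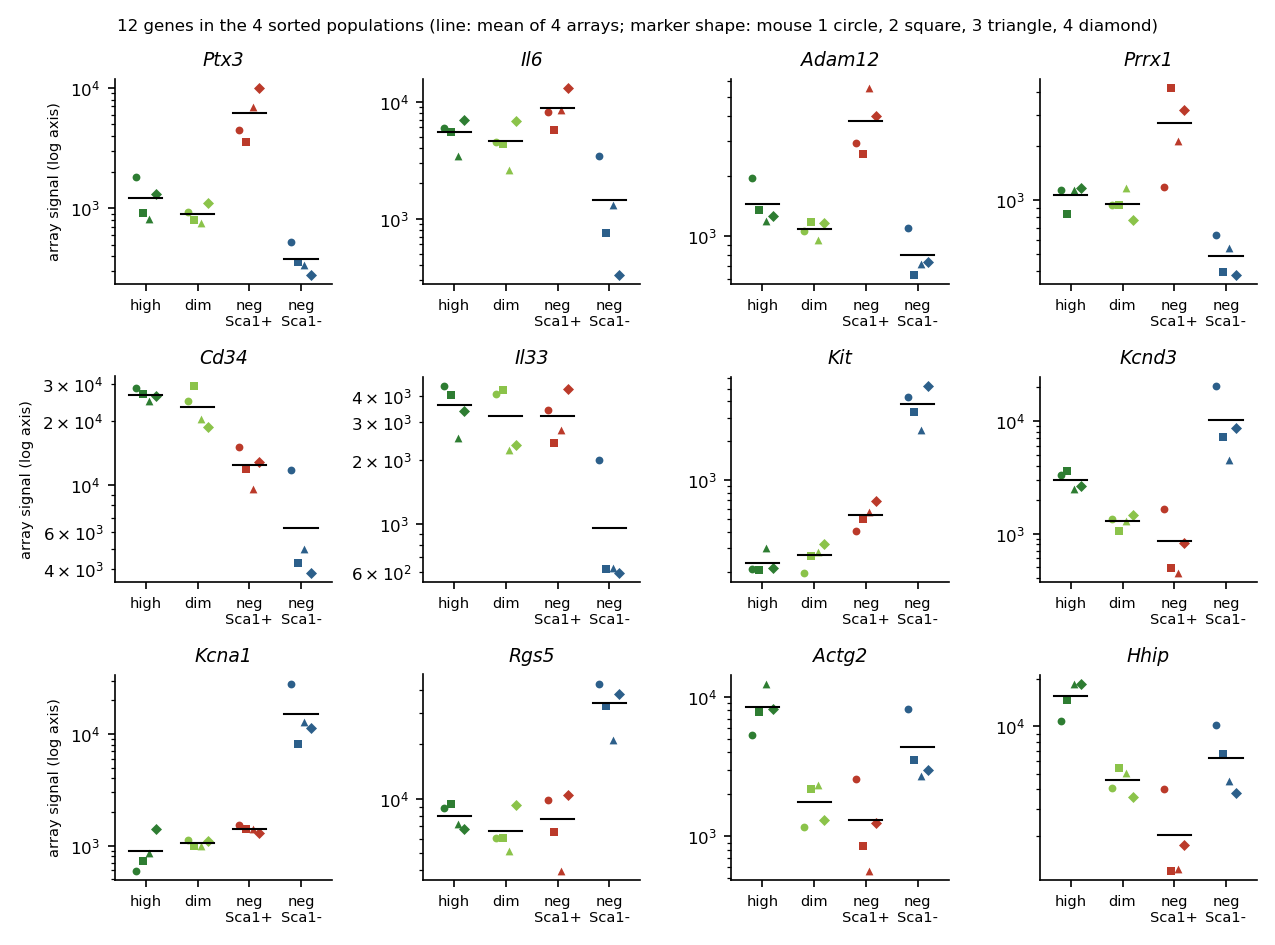
Array signal on a log axis of 12 genes in the 4 sorted populations, those with high or dim reporter and both reporter-negative ones, 1 point an array, a marker shape for each mouse and a line at the mean of 4 arrays. Kit, Kcna1 and Rgs5 are highest in the Sca1- arrays. Ptx3, Adam12 and Prrx1 are highest in Sca1+ reporter-negative cells, and Actg2 and Hhip are highest in reporter-high cells.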

How the data were processed

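Deposited values are scores: per the file's own values, each probe set was centred and scaled by the authors over the 16 arrays. Affymetrix Expression Console 1.1 is named in the submitters' processing notes. For all 45141 probe sets 1 set of whole-number signals (58 to 155937) gave the deposited scores within 1e-09, and 1000 of 1000 simulated probe sets were recovered, so log2 of these signals was used. Of the probe sets 28898 carry 1 gene symbol, 551 several and 15588 none, and 104 are controls. The brightest probe set by mean stood for each of 17097 genes, 7180 of which have more than 1. limma 3.58.1 (R 4.3.3) fitted 1 mean per population over all 16 arrays without a block, and p-values were adjusted by Benjamini-Hochberg over 17097 genes. All adjusted p-values in the text are limma's. P-values measure the spread between the arrays of a population, pooled over all 4 populations. On simulated data, 89 of 100 genes changed by 1 on the log2 scale and 99 of 100 changed by 2 were recovered, with 5 unchanged genes called. The simulated noise was independent between genes and between arrays, without an effect of the mouse. These numbers are therefore not the error rate of the calls made here. The labels give both populations of a number to 1 mouse. Deviations of the 2 arrays from their population means correlated at 0.159 to 0.683 within 4 mice. Over 12 pairs of different mice they correlated at -0.540 to 0.35, with a mean of -0.137, so the ranges overlapped. Deviations within a population cancel out, which itself lowers the mean over different mice. The pairing therefore rests on the labels. Named genes were the sort genes, the 10 largest changes each way among genes past the threshold with 1 direction in all mice and a mean above the median probe set, 3 members per list and defining markers. Members and the 50 lists (819 genes measured) were chosen with earlier results of these data known. Promoter motifs were chosen after values were seen, and 2 forms of the NF-kB letters were searched. Gene symbols come from the platform annotation, and promoters from RefSeq. Python 3.11.15 with numpy 2.4.6, pandas 2.3.3 and matplotlib 3.10.9 made the other tables and the figures. The alternatives were other blocks, arrays, scalings, filters and weights.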

Additional observations from a re-analysis of the deposited data

Results flagged for a closer look

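In 116 named genes the highest or lowest of the 4 arrays of a population was set against the other 3 by its gap relative to the range (the rule of Dixon). Of 232 groups 19 were flagged, and chance flags about 1 in 20. The Sca1- array of mouse 1 accounts for 16 of the 19, always as the highest. That array also had the lowest mean log2 signal of the epithelium list, at 13.10 against 13.90 to 14.22 in the other Sca1- arrays. Mouse 1 was the only mouse with low Xist and bright Kdm5d in its reporter-negative arrays. The part of either in these values was not tested. Among genes that rose in Sca1+ cells, it stood above the other Sca1- arrays in secreted factors and enzymes. In these, C1ra read 6475 against 3207 to 3449, Igf1 read 6670 against 3475 to 3763, Igfbp4 read 37303 against 20200 to 20900 and Il33 read 1998 against 594 to 626. Further, Lox read 4867 against 1352 to 1657, Lpl read 14754 against 5581 to 6321, Mmp3 read 1828 against 633 to 753 and Pcolce read 6943 against 3072 to 3367. It also did so in receptors, surface proteins and a transcription factor, where Ebf1 read 1315 against 533 to 588, Icam1 read 8501 against 3513 to 3691 and Scara3 read 1678 against 759 to 850. Pdpn, which did not pass, belongs here too: Pdpn read 3878 against 1590 to 1674. Among glial and neural genes that fell, Gfra2 read 7983 against 3244 to 3472, Gjc3 read 1670 against 776 to 831, Gpm6b read 8311 against 3529 to 3897 and Lgi4 read 5810 against 2642 to 2892. In the Sca1+ arrays 3 values were flagged: Abcg1 read 607 against 541 to 548 in mouse 4, Gfpt2 read 12522 against 8932 to 9392 in mouse 4 and Emilin2 read 6533 against 5138 to 5318 in mouse 3. For these genes the direction was the same without mouse 1.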

How the results depend on the processing

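The number of genes past the threshold, 419 (209 up, 210 down), moved with the treatment of the animals and of the spread. With the replicate block on all 16 arrays it was 635 (353 up), and with the block on the 8 arrays 353 genes rose. On the 8 arrays without the block it was 116 (58 up, 58 down). Array weights gave 684 (403 up), the epithelium mean as a covariate 693 (396 up), the deposited scores 28 (20 up, 8 down) and all probe sets 699 (329 up, 370 down). Among the brighter genes, those above the median signal, 134 fell. Of the alternatives chosen after seeing the data, a block with the reporter-positive arrays of mouse 2 as an animal of their own gave 815 (470 up, 345 down), the 8 paired arrays without mouse 1 gave 784 (530 up), and leaving out those reporter-positive arrays gave 319. Leaving out 1 mouse or 1 array gave 133 to 789 genes, 59 to 544 up and 70 to 275 down. Quantile scaling, hybridization controls, the array median, background subtraction, 64 added before log2, the mean over probe sets and a robust variance trend gave 408 to 466. The cause of these shifts was not tested, except that fewer arrays or genes entered some fits. Of 111 named genes past the threshold none changed direction under any alternative that measured them. All 111 had passed in these same arrays, so this could hardly have come out otherwise. Paired by mouse 15 did not pass, each of those described with its paired value or listed here (Il31ra, Cnp, Lgi4, Npr3), and the block changed no other call among them. The deposited scores kept 14 of the 111. Differences near 0 changed sign. That of Epcam was -0.013 without mouse 1, paired or not, and ran from -0.164 to 0.229 as single arrays were left out. That of Pecam1 ran from -0.133 to 0.355, at -0.086 without mouse 4, -0.055 without the Sca1+ array of mouse 1, and -0.133 and -0.061 without the Sca1- arrays of mice 3 and 4. Array background bounds the change of dim genes.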

Other observations

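Gene families outside the lists above were read after their values were seen, so their counts are a description. Among 13 measured myelin and Schwann cell genes 9 fell and 0 rose, with a median of -1.01, where 1.23% of all genes fell and 1.22% rose. These shares apply to all counts of this kind below. Gpr37l1, a receptor of glia, read 637, 643, 646 and 609 in the Sca1+ arrays of mice 1 to 4 and 5471, 1896, 2404 and 2667 in the Sca1- arrays (-2.17 ± 0.22, adjusted p = 5.90e-05). Mbp, the basic protein of myelin, read 298, 288, 410 and 344 against 2411, 660, 1118 and 813 (-1.73 ± 0.30, adjusted p = 0.0047). Ptprz1, a phosphatase of glial precursors, was at array background in Sca1+ cells and at least 2.13-fold higher in Sca1- cells (adjusted p = 0.0014). The Sca1- array of mouse 1 was the highest in each, and the populations did not overlap. Of 12 measured genes of nitric oxide and natriuretic peptide signalling 4 fell and 0 rose. The subunits of the nitric oxide receptor read 6700, 4732, 4590 and 6865 against 18673, 12721, 9715 and 18342 for Gucy1a1 (-1.35 ± 0.22, adjusted p = 0.00262) and 862, 501, 484 and 857 against 2179, 1072, 1076 and 1665 for Gucy1b1 (-1.14 ± 0.27, adjusted p = 0.0348; without mouse 1 adjusted p = 0.0709). Of 9 genes of the GDNF family, which guides enteric neurons, the co-receptors Gfra1 and Gfra2 fell, and Gfra1 did not pass paired by mouse (adjusted p = 0.091).

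Several receptors and adaptors of the cytokines described in the report rose. Of 10 measured genes of IL-6 family signalling 4 rose and 0 fell, among them the receptor Il6ra (5452 ± 1145 against 3252 ± 644, 0.74 ± 0.15, adjusted p = 0.00982) and Osmr, the receptor of oncostatin M (0.86 ± 0.21, adjusted p = 0.0476). Of 17 measured genes of IL-1 and Toll-like receptor signalling 4 rose and 0 fell: the receptor Il1r1 (0.71 ± 0.14), the adaptor Myd88 (0.56 ± 0.09), the inhibitor Irak3 (1.17 ± 0.15) and the endotoxin carrier Lbp (1.71 ± 0.36, adjusted p = 0.0187; paired adjusted p = 0.0649). Of 6 measured Ifi200 genes, interferon-inducible sensors of DNA, 3 rose: Ifi204 was at array background in Sca1- cells and at least 3.07-fold higher in Sca1+ cells (adjusted p = 1.31e-06), and Ifi203 and Ifi205 rose by 1.39 ± 0.17 and 1.81 ± 0.23. These are near-identical copies whose probe sets may read one another, and 0 of the 22 genes of the interferon list passed by its brightest probe set. Of 10 procollagen-processing and carboxypeptidase-like genes 5 rose and 1, Cpe, fell. Over all 77 measured genes whose symbol starts with Kcn, 10 fell and 0 rose, and their median was -0.02.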
